A study of Homo sapiens with 6 samples.

Results

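The 9 genes described here encode proteins that bind the RUNX1-RUNX1T1 fusion protein: the corepressor NCOR1 and its partners TBL1XR1 and HDAC3, the corepressor SIN3A and its deacetylases HDAC1 and HDAC2, the acetyltransferase EP300, the arginine methyltransferase PRMT1 and the E protein TCF12. They were taken by symbol from a table of 27576 Ensembl genes, and all 9 passed the filter on low values together with 21946 genes in all. The choice used no measured value, but it was made with earlier results of these data known. RNA was sequenced from Kasumi-1, an established acute myeloid leukaemia line that carries the fusion. One group of 3 libraries came from cells given 10 ng/ml of recombinant human interleukin-10 (IL-10) for 72 h, and the control group of 3 libraries from cells given 0.5% bovine serum albumin for the same time. Both groups grew in RPMI1640 with 20% fetal bovine serum, and the labels name no other treatment. A single line was used, and whether replicates came from separate cultures is not in the labels. The p-values below therefore speak only of the spread among these 6 samples, and that spread may be technical.

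The fusion joins the DNA-binding part of RUNX1 to most of RUNX1T1, a protein that recruits corepressors. Through its RUNX1T1 part it holds NCOR1 and SIN3A complexes with their histone deacetylases at RUNX1 target genes, which represses them, while EP300, PRMT1 and E proteins bound to the fusion take part in its activating functions. These cofactors are present in most cells, so the fusion is thought to redirect proteins that the cell already makes. The comparison asks whether transcripts of these cofactors differed after 72 h of IL-10.

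Sequences are shown for 2 pairs of close relatives that differ in base composition and whose values are set side by side below. Within each pair the most alike 90 coding bases inside 1 exon are shown 5′ to 3′ from GENCODE 29 on GRCh38, with capitals where the relatives differ. HDAC1 exon 2 lies at chr1:32302638-32302727 on the plus strand and HDAC2 exon 2 at chr6:113959912-113960001 on the minus strand. TBL1X exon 15 lies at chrX:9711687-9711776 on the plus strand and TBL1XR1 exon 14 at chr3:177032971-177033060 on the minus strand.
HDAC1: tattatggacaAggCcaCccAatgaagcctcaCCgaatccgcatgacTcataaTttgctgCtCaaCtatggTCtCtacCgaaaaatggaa
HDAC2: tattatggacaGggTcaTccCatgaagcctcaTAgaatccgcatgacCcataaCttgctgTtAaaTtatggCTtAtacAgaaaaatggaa
TBL1XR1: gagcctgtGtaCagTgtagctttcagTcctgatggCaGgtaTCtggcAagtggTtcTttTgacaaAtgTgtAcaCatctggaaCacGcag
TBL1X: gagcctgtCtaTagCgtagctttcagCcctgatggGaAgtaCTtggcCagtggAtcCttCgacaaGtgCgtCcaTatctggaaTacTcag

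The HDAC1 and HDAC2 stretches differed at 15 of 90 bases, and the differing base was G or C at 10 of them in HDAC1 and at 5 in HDAC2. Over the aligned coding sequence, 348 of 1444 bases differed. HDAC1 had G or C against A or T in HDAC2 at 218 of those, and the opposite held at 62. The stretches of TBL1XR1 and TBL1X differed at 18 of 90 bases, with G or C at 8 in TBL1XR1 and 11 in TBL1X. Their aligned coding sequence of 1542 bases was 74.6% identical. TBL1XR1 had A or T against G or C in TBL1X at 246 bases, and the opposite held at 74. The GC content at the third position of codons was 30.9% in HDAC2 and 61.5% in HDAC1, and 31.7% in TBL1XR1 and 63.4% in TBL1X.

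Recovered depth was 20750115 to 23077693 reads in the IL-10 libraries and 22429270 to 24222897 reads in the control libraries, and the 9 genes had 691 to 19485 reads each per library. Values are normalised read counts, the deposited reads divided by 1 size factor per library. The myeloid blast markers RUNX1T1, KIT, CD34, CD33, MPO, PTPRC and AZU1 were at 422 or more in every library, while ELANE, a neutrophil elastase gene, was at 4.70 to 159 with IL-10 and 8.95 to 139.7 in control. Of 11 hepatocyte markers, ALB, TF, APOA2, APOB, AFP, FGA and AHSG stood at 17.6 to 128 in IL-10 replicate 2 and at 32.8 to 243 in control replicate 2, and at most at 5.34 elsewhere. APOA1 had 12.8 to 85.8 with IL-10 and 17.7 to 83.5 in control, highest in both replicate 2 libraries, and FGB and TTR had at most 2.98. The summed list was 1329.5 to 1685 with IL-10 and 1323 to 1942 in control. SERPINA1, which myeloid cells also make, had 1158 to 1664 of it with IL-10 and 879 to 1435 in control, lowest in both replicate 2 libraries. The 5 airway secretory markers summed to 79.1 to 85.5 with IL-10 and 166 to 205 in control. The monocyte marker CD14 and the B-cell marker MS4A1 had at most 2.67, whereas the T-cell marker CD3D ran from 1727 to 2559.9 with IL-10 and from 1593 to 2309.6 in control. In bulk RNA, fewer cells of a type and less RNA per cell cannot be told apart. Whether the hepatocyte and airway transcripts came from cells in these cultures at all was not tested. The part of these transcripts in the results below was not tested.

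None of the 9 cofactors passed the threshold, a Benjamini-Hochberg adjusted p under 0.05 in limma over all genes tested, at which 0 of 21946 genes (0%) were called (344 at an unadjusted p under 0.05). edgeR also called 0 genes (257 unadjusted) and DESeq2 0 (94 unadjusted). What set the libraries apart was IL-10 replicate 2. HDAC1, HDAC3, EP300 and PRMT1 were highest of all 6 libraries there, and NCOR1, HDAC2, TCF12 and TBL1XR1 were lowest there. In the same-numbered libraries 1 and 3, IL-10 and control values of all 9 genes lay within 0.08 of each other on the log2 scale.

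**Figure D1:**
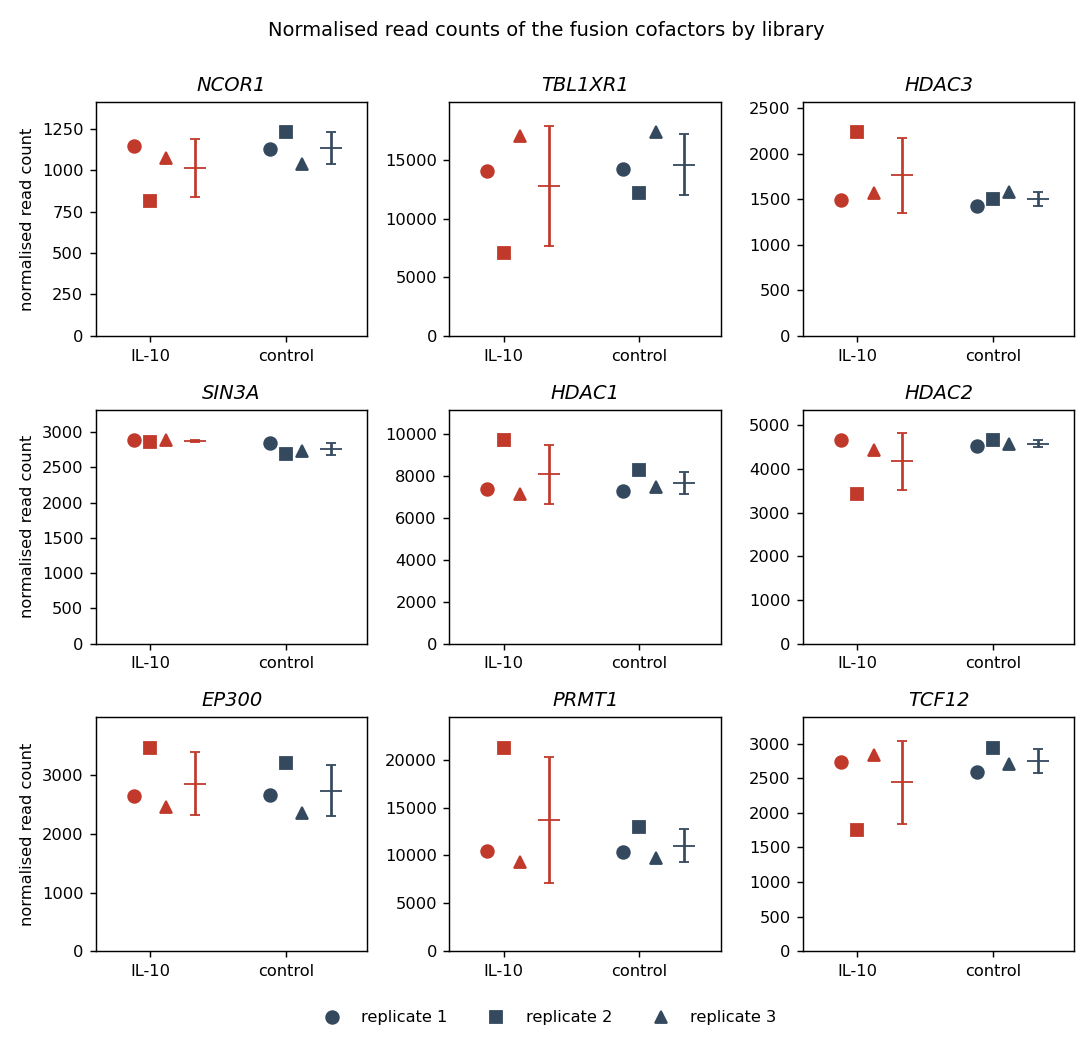
Normalised read counts (vertical axis, from 0) of the 9 fusion cofactors in the 3 IL-10 libraries (red, left) and the 3 control libraries (dark, right), with marker shape for the replicate number and the mean ± SD beside each group. IL-10 replicate 2 (square) is the highest or lowest library in 8 panels, for example at 21238 for PRMT1 and 7092 for TBL1XR1, and not in that of SIN3A.

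In the NCOR1 complex, NCOR1 is the scaffold that docks on the fusion, HDAC3 is its catalytic subunit, and TBL1XR1 is a WD40-repeat protein that helps exchange corepressors for coactivators. NCOR1 (ENSG00000141027, chromosome 17, 16029157 to 16218185) had values of 1145, 812 and 1075 in IL-10 replicates 1 to 3, against 1129, 1227 and 1036 in control replicates 1 to 3. IL-10 replicate 2 was the lowest library, and the groups overlapped. The means were 1011 ± 175 with IL-10 and 1131 ± 95.8 in control (SD, n = 3 each), a log2 fold change of -0.17 (SE 0.18, limma adjusted p = 0.982). Without IL-10 replicate 2 it was -0.02. TTC19, which lies opposite NCOR1 on the other strand, stood at 1133 to 1209 with IL-10 and 1057 to 1173 in control. PIGL, which overlaps NCOR1 on that strand too, had 224 to 267 with IL-10 and 250 to 268 in control. Use of strand is not given in the sources used here, so reads of the overlap cannot be told apart.

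TBL1XR1 (ENSG00000177565, chromosome 3, 177019340 to 177228000) had the widest spread of the 9 as a ratio, its highest IL-10 library being 2.40 times the lowest. It stood at 14073, 7092 and 17056 with IL-10, against 14227, 12179.7 and 17335.5 in control. The order of the replicates was the same in both groups, with replicate 3 highest and replicate 2 lowest, and the groups overlapped. The mean was 12741 ± 5114 with IL-10 and 14581 ± 2596 in control (SD, n = 3 each). Its log2 fold change was -0.27 (SE 0.31, adjusted p = 0.982), with a 95% interval of -0.98 to 0.43. Without IL-10 replicate 2 the sign turned, to 0.10 (95% interval -0.25 to 0.46). Its antisense transcript TBL1XR1-AS1, named after its values were seen, was at 12.8, 10.6 and 11.4 with IL-10 and 22.4, 21.9 and 13.3 in control, a log2 fold change of -0.65 that did not pass (adjusted p = 0.982).

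HDAC3 (ENSG00000171720, chromosome 5, 141620876 to 141636870) stood at 1491, 2237 and 1570.0 with IL-10, against 1431, 1508 and 1579 in control. Only IL-10 replicate 2 lay outside 1431 to 1579. The log2 fold change was 0.21 (SE 0.19, adjusted p = 0.982). Leaving out IL-10 replicate 2 gave 0.02. HDAC3 was the 1 gene of the 9 whose sign did not change in any of the 22 alternative fits, with 0.02 to 0.32. Within the same-numbered libraries 1, 2 and 3, however, its log2 ratios were 0.06, 0.57 and -0.01.

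SIN3A is the scaffold of a second corepressor complex, in which HDAC1 and HDAC2 are the catalytic subunits. SIN3A (ENSG00000169375, chromosome 15, 75369379 to 75455842) was the steadiest of the 9, at 2886, 2853 and 2887 with IL-10, against 2851, 2695 and 2732 in control. Every IL-10 value was above every control value, but by as little as 1.82 normalised reads. SIN3A was the 1 gene of 9 (11.1%) whose groups did not overlap. Over all genes tested, 2.85% had every IL-10 library above control and 3.02% every IL-10 library below. The means were 2875 ± 19.6 with IL-10 and 2759 ± 81.4 in control (SD, n = 3 each), a log2 fold change of 0.06 (SE 0.14, 95% interval -0.26 to 0.38, limma adjusted p = 0.982). That interval runs from 0.835-fold to 1.30-fold. Of the 9 genes it had the narrowest, and it turned sign with quantile normalization and with equal totals.

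HDAC1 (ENSG00000116478, chromosome 1, 32292086 to 32333635) had 7369, 9689.7 and 7131 with IL-10, against 7255, 8264 and 7446 in control. Replicate 2 was the highest library of each group. Its log2 fold change was 0.06 (SE 0.17, adjusted p = 0.982). Leaving out IL-10 replicate 2 gave -0.08. HDAC2 (ENSG00000196591, chromosome 6, 113933028 to 114011308) had 4657, 3436 and 4436 with IL-10, against 4523, 4664 and 4564 in control. The 3 control libraries differed by at most 1.03-fold, and IL-10 replicate 2 was lower than the other 5 libraries. The log2 fold change of HDAC2 was -0.15 (SE 0.17, adjusted p = 0.982), and -0.01 without that library. The ratio of HDAC1 to HDAC2 reads was 2.82 in IL-10 replicate 2, against 1.58 and 1.61 in IL-10 replicates 1 and 3 and 1.604, 1.77 and 1.63 in control. The antisense gene HDAC2-AS2 was at 1.86 to 16.1 in all libraries.

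EP300 acetylates histones and the fusion protein itself, and PRMT1 places arginine methyl marks on histones and binds a splice form of the fusion. EP300 (ENSG00000100393, chromosome 22, 41091786 to 41180079) stood at 2639.8, 3471 and 2461 with IL-10, against 2659.8, 3203 and 2356 in control. Both groups had replicate 2 highest and replicate 3 lowest. Its log2 fold change was 0.06 (SE 0.19, adjusted p = 0.986). Leaving out IL-10 replicate 2 gave -0.09. The ratio of EP300 to its paralog CREBBP, also an acetyltransferase, ranged from 3.36 to 3.64 with IL-10 and from 3.19 to 3.53 in control.

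PRMT1 (ENSG00000126457, chromosome 19, 49675786 to 49689029) stood at 10446, 21238 and 9340.2 with IL-10, against 10379, 12989 and 9723 in control. Replicate 2 was the highest library of each group, and the log2 ratio of the IL-10 one to its control partner was 0.71. The means were 13675 ± 6573 with IL-10 and 11031 ± 1728 in control (SD, n = 3 each), with a log2 fold change of 0.22 (SE 0.30, 95% interval -0.46 to 0.90, adjusted p = 0.982). Without IL-10 replicate 2 it was -0.15 (95% interval -0.45 to 0.15). ADM5, which overlaps PRMT1 on the same strand, was at 112 to 212 with IL-10 and 115 to 174 in control.

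TCF12 is a basic helix-loop-helix E protein that forms a DNA-binding complex with the fusion in leukaemia cells. TCF12 (ENSG00000140262, chromosome 15, 56918623 to 57299281) stood at 2736, 1751 and 2839.9 with IL-10, against 2595, 2939.5 and 2708 in control. IL-10 replicate 2 was lowest, and the other 5 libraries ran from 2595 to 2939.5. Its log2 fold change was -0.20 (SE 0.21, adjusted p = 0.982), and 0.02 without that library. Of other E proteins, TCF3 had 6683, 16579 and 6596 with IL-10 and 7102, 9557 and 6803 in control, while TCF4 had at most 1.07.

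Same-numbered libraries resembled each other over 11604 genes of mean 50 or more, so IL-10 was also set against control within each number. The order of the replicates was the same in both groups for 3 of the 9 cofactors and for 43.7% of those genes. In pair 1 the log2 ratios of the 9 genes ran from -0.02 to 0.08, and no exact 95% counting interval excluded 0, whereas 18.8% of 10505 genes of mean 100 or more had one that did. In pair 3 they ran from -0.06 to 0.08, and the intervals of 3 genes excluded 0, those of HDAC1 (-0.11 to -0.02), PRMT1 (-0.10 to -0.02) and SIN3A (0.01 to 0.15), against 15.6% of the 10505 genes. In pair 2 they ran from -0.78 for TBL1XR1 to 0.71 for PRMT1, and the intervals of all 9 excluded 0, against 80.3%. These intervals cover counting error only and compare 2 libraries, not the conditions.

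**Figure D2:**
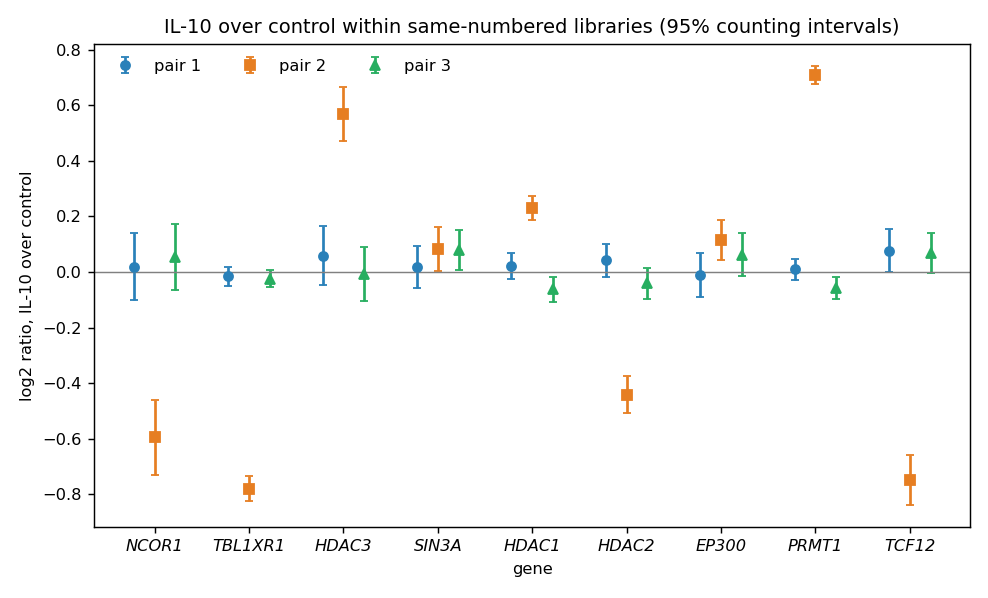
The log2 ratio of IL-10 over control (vertical axis) for each cofactor within the same-numbered libraries 1, 2 and 3, with exact 95% counting intervals. Ratios of pairs 1 and 3 lie between -0.06 and 0.08, and those of pair 2 between -0.78 and 0.71.

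A fit of pairs 1 and 3 with the replicate as a block, planned as an alternative, called 11 of 20308 genes (0.0542%), none of them a cofactor. It has 4 libraries and 1 residual degree of freedom. Its 95% intervals were narrow: -0.09 to 0.05 for TBL1XR1, -0.10 to 0.05 for PRMT1, -0.02 to 0.17 for TCF12 and -0.05 to 0.14 for SIN3A. Their width comes from limma's variance trend over all genes and does not measure each gene's own spread. With all 6 libraries the intervals reached 0.32 (SIN3A) to 0.71 (TBL1XR1) to either side. With the replicate block on all 6 libraries, 0 genes passed.

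**Figure D3:**
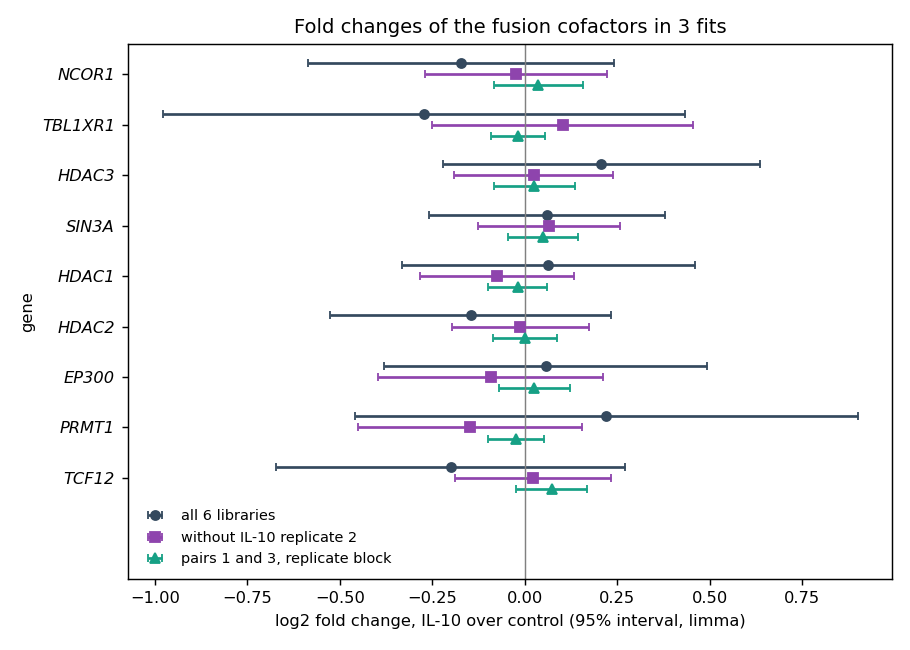
The log2 fold change of IL-10 over control (horizontal axis) with its 95% interval in limma for each cofactor, with all 6 libraries, without IL-10 replicate 2, and in pairs 1 and 3 with the replicate as a block. All intervals include 0, and those of TBL1XR1 are -0.98 to 0.43, -0.25 to 0.46 and -0.09 to 0.05.

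The direction in which a cofactor departed in IL-10 replicate 2 followed the GC content of its principal transcript. On the log2 scale, the deviation of that library from the mean of the other 5 was 1.02 for PRMT1 (58.8% GC), 0.56 for HDAC3 (52.7%), 0.39 for EP300 (52.0%) and 0.37 for HDAC1 (49.4%). It was 0.02 for SIN3A (47.1%). The deviation was -0.46 for NCOR1 (45.2% GC), -0.66 for TCF12 (42.8%), -0.41 for HDAC2 (38.2%) and -1.07 for TBL1XR1 (34.5%). Across the 9 genes, which share the libraries and are not replicates, Spearman's rho of deviation with GC content was 0.95, and it was 0.770 over the 11575 genes of mean 50 or more. In those genes the median deviation was -0.75 in the GC decile that holds TBL1XR1 and HDAC2, the lowest, and 0.72 in the decile that holds PRMT1, the highest but 1. Of 11604 genes of mean 50 or more, 46.0% were highest and 33.7% lowest in IL-10 replicate 2.

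The relatives named above departed in opposite directions there. TBL1X (49.6% GC) stood at 1362, 1816 and 1387 with IL-10, against 1286, 1397 and 1393 in control. The ratio of TBL1XR1 to TBL1X reads was 3.91 in IL-10 replicate 2, against 10.3 and 12.3 in IL-10 replicates 1 and 3 and 11.1, 8.72 and 12.4 in control. After a correction of each library for transcript GC content, the deviations of the 9 genes lay between -0.33 for TCF12 and NCOR1 and 0.43 for PRMT1. That of HDAC2 then was 0.25, the opposite sign. The log2 fold changes of IL-10 over control after this correction ran from -0.15 (NCOR1) to 0.09 (HDAC3), and none passed.

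**Figure D4:**
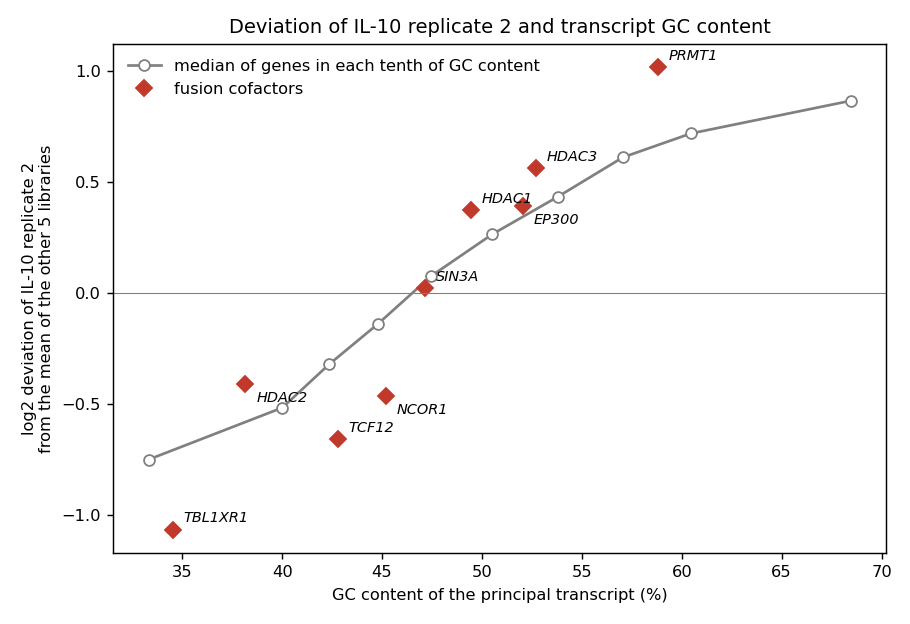
The log2 deviation of IL-10 replicate 2 from the mean of the other 5 libraries (vertical axis) against the GC content of the principal transcript (horizontal axis). Diamonds are the 9 cofactors, from -1.07 for TBL1XR1 at 34.5% GC to 1.02 for PRMT1 at 58.8% GC, and open circles are medians over deciles of GC content for all genes of mean 50 or more, each placed at the middle of its decile's range.

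Levels between genes were compared as normalised reads per kilobase of principal transcript. PRMT1 was highest at 9817 ± 4719 with IL-10 and 7919 ± 1240 in control, followed by HDAC1 at 3796 ± 666 with IL-10 and 3604 ± 252 in control (SD, n = 3 each). TBL1XR1 stood at 1603 ± 643 with IL-10 and 1835 ± 327 in control, and HDAC3 at 901 ± 209 with IL-10 and 769 ± 37.8 in control. TBL1XR1 and HDAC3 exchanged places in IL-10 replicate 2, at 892 for TBL1XR1 and 1142 for HDAC3. TCF12 stood at 510 ± 126 with IL-10 and 574 ± 36.7 in control, HDAC2 at 423 ± 65.9 with IL-10 and 464 ± 7.33 in control, and SIN3A at 427 ± 2.91 with IL-10 and 409.6 ± 12.1 in control. In control no neighbours in this order overlapped over the 3 libraries. With IL-10, HDAC2 (348 to 472) overlapped SIN3A (423 to 429), TCF12 (366 to 593) and EP300 (257 to 362), and the TCF12 values spanned those of SIN3A. In IL-10 replicate 2, EP300 (362) was above HDAC2 (348). EP300 stood at 298 ± 56.2 with IL-10 and 286 ± 44.8 in control, and NCOR1 was lowest at 94.3 ± 16.4 with IL-10 and 105 ± 8.93 in control. RUNX1T1, whose reads include those of the fusion, had 467 ± 58.9 with IL-10 and 493 ± 15.9 in control, between HDAC2 and TCF12. Per kilobase of all annotated exons the control order was the same but for HDAC2 (296) and TCF12 (291), which exchanged places. PRMT1 (2300) and HDAC1 (1932) then lay much closer in control mean, so the lead of PRMT1 depends on the length used. Overlap of neighbours was not compared on that length.

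Among the 3 deacetylases, HDAC1 made up 73.8%, 75.4% and 72.9% of the summed level per kilobase in IL-10 replicates 1 to 3, against 74.2%, 75.8% and 73.4% in control. HDAC2 made up 10.0%, 5.75% and 9.75% with IL-10, against 9.95%, 9.20% and 9.68% in control. The remainder was HDAC3, at 16.2%, 18.9% and 17.4% with IL-10 and 15.9%, 15.0% and 16.9% in control. These shares depend on the annotated length of HDAC2, whose principal transcript of 9874 bases is far longer than the 2124 bases of HDAC1.

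**Figure D5:**
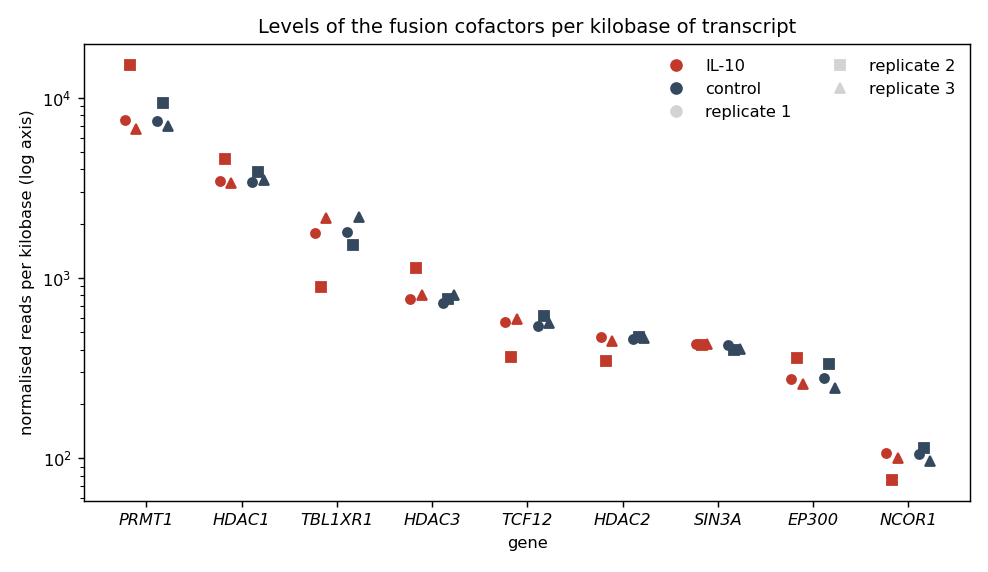
Normalised reads per kilobase of principal transcript (vertical log axis) of the 9 cofactors in the IL-10 (red, left) and control (dark, right) libraries, ordered by the control mean. The control means run from 7919 for PRMT1 to 105 for NCOR1, and IL-10 replicate 2 (square) is the highest or lowest of its group in all 9 genes.

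The 8 lists of subunits of these and related complexes, of related enzyme families and of partner factors also held no gene past the threshold. Counts per list include the cofactors that belong to it. Of 74 listed genes that were tested beside the 9, 53 had a positive log2 fold change and 21 a negative one, with a median of 0.10, and 0 passed. Of all 11604 genes of mean 50 or more, 58.8% were positive, with a median of 0.05. Without IL-10 replicate 2 the 74 genes split into 35 positive and 39 negative.

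Of 7 genes listed for the NCOR1 complex, 5 were positive and 2 negative, with a median of 0.15, against 3 positive and 4 negative without IL-10 replicate 2 (median -0.02). CORO2A, a WD40-repeat subunit, had 107 to 135 with IL-10 and 101 to 179 in control. The 18 SIN3 complex genes split into 12 positive and 6 negative, with a median of 0.05, against 9 and 9 without IL-10 replicate 2 (median 0.01). The histone-binding subunit RBBP4 was at 4375 to 4459 with IL-10 and 4333 to 4506 in control. RBBP7, also histone-binding, was at 5812 to 6447 with IL-10 and 5830.1 to 6161 in control. The subunit SINHCAF was at 5498 to 5827 with IL-10 and 5528 to 5967 in control. RBBP4, RBBP7 and SINHCAF stayed close in all libraries, IL-10 replicate 2 included, but the list as a whole did not. Over its 18 genes the log2 deviation of that library from the other 5 ran from -1.73 to 1.29. For RBBP4 and SINHCAF it was 0.01 each, against medians of -0.32 and -0.52 in their GC deciles.

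Among 15 genes of the NuRD and CoREST complexes, which also contain HDAC1 and HDAC2, 13 were positive and 2 negative, with a median of 0.14. Without IL-10 replicate 2, 6 were positive and 9 negative. The remodeller CHD4 had 10379.8, 13829 and 9184 with IL-10, against 9958, 10715 and 9259.9 in control, and the subunit GATAD2A had 5307, 10577 and 4217 with IL-10, against 5117, 6571 and 4368 in control. CHD3, the paralog of CHD4, stood at 6219, 7581 and 6396 with IL-10, above 6002, 5508 and 6066 in control, without passing (log2 fold change 0.20, adjusted p = 0.982). Other histone deacetylases gave 6 positive and 2 negative of 8, with a median of 0.18. The split was again 6 and 2 without IL-10 replicate 2 (median 0.04). HDAC7 had 2462, 4429.9 and 3064 with IL-10, against 2648, 2757 and 3053 in control. HDAC6, a tubulin deacetylase, had 1223, 1618 and 1317 with IL-10, narrowly above 1219.5, 1212 and 1183 in control. CHD3 and HDAC6 were the 2 of the 74 listed genes beside the 9 with every IL-10 value above control, and 0 had every value below. Over all genes tested, 2.85% lay wholly above. HDAC5 had 1112 to 1516 with IL-10 and 899.96 to 1250.01 in control.

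The 12 acetyltransferase genes split evenly, with a median of 0.01, and did so without IL-10 replicate 2 as well. KAT2A had 2886, 5528 and 2827 with IL-10, against 2981, 3752 and 2716 in control, whereas KAT6A lay between 2612 and 2923 with IL-10 and between 2575 and 3054 in control, and KAT7 between 2179 and 2736 with IL-10 and between 2068 and 2283 in control. Of 8 arginine methyltransferases 6 were positive, with a median of 0.15, but 1 was positive without IL-10 replicate 2. CARM1, a coactivator, had 2584, 6151 and 2293 with IL-10, against 2566, 3298 and 2389.7 in control. PRMT5 had 1107, 2043 and 907 with IL-10, against 1056, 1333 and 993 in control. PRMT2 had 1663 to 1757 with IL-10 and 1378 to 1730.0 in control.

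Of the 10 tested genes for E proteins and their partners, 7 were positive and 3 negative, with a median of 0.12, against 5 and 5 without IL-10 replicate 2 (median 0.01). LYL1, a helix-loop-helix partner of E proteins, had 9653, 25537 and 9013 with IL-10, against 9807, 13320.3 and 10182 in control. JMJD1C, which serves as a coactivator of the fusion, had 3591, 1249 and 4065 with IL-10, against 3712, 3069 and 3903 in control. For the fusion's parents and relatives, 3 of 5 genes were positive, with a median of 0.07, and 3 of 5 without IL-10 replicate 2 (median 0.03). RUNX1 had 11219, 11976 and 12084 with IL-10, against 11234.5, 10833 and 11299 in control, and RUNX1T1 had 3835, 3071 and 3874 with IL-10, against 3878, 3649.6 and 3839.9 in control. CBFB, the RUNX1 partner, had 2753 to 3584 with IL-10 and 2783 to 3732 in control.

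For each cofactor the other gene most like it was sought by Pearson's r of log2 values over the 6 libraries, among genes of mean 50 or more. PRMT1 was matched by POLRMT (0.9999), TCF12 by SCFD1 (0.9995), HDAC3 by RPS3 (0.9995), TBL1XR1 by RAP1A (0.9994), HDAC2 by ANP32E (0.9991), NCOR1 by LINS1 (0.9991), HDAC1 by SCNM1 (0.9982) and EP300 by FAM86C1P (0.9981). With 6 libraries of which 1 stands apart, such values are common: 2244 genes (19.4%) had an r above 0.95 with PRMT1 and 346 (2.98%) with NCOR1. SIN3A, which did not depart in IL-10 replicate 2, had 4 such genes, and its closest was LHX2 (0.971).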

How the data were processed

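The authors deposited 1 table, named as FPKM, whose values are a normalised signal: in each library 100% of values are whole multiples of 1 step (tolerance 0.01 read), which makes them reads scaled by a single factor for each library (0.851 to 1.12). No header or label states this step. Per the submitters' processing notes, edgeR 3.18.1, GRCh38 and hg38 were used, without saying for what. Which aligner, read counter and annotation the authors used, and whether counting used strand, is not given in the sources used here.

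The plan assumed FPKM and was kept: limma 3.58.1 (R 4.3.3, intensity trend) on log2(value + 1), for genes that reached 1 in 3 or more libraries, with two-sided p-values. Fold changes are on that scale. Count tests on recovered reads used edgeR 4.0.16 (quasi-likelihood) and DESeq2 1.42.0. The step of control replicate 2, 0.994, is too close to 1 for an automatic check of recovery, so edgeR was also run without that library. Identifiers were named from a symbol table (26883 matched), and coordinates, lengths and GC content come from GENCODE 29 (27052 matched), using the principal transcript. Pseudogenes of NCOR1 and HDAC1 in GENCODE were not analysed here and can share their reads.

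The 9 cofactors and the gene lists were chosen with earlier results of these data known. Named genes are the 9, the most alike gene of each, up to 3 of highest mean per list (1 item is not reported here), RUNX1 and RUNX1T1, and markers. Same-numbered libraries were taken as pairs because their deviations from the group means correlated at 0.356, 0.602 and 0.726 over 11604 genes, each over 0.1. Libraries of different numbers correlated at -0.695 to 0.203, so some of those were also over 0.1. The labels give only a shared number. Counting intervals are exact (Clopper-Pearson). The tests were tried on simulated data.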

Additional observations from a re-analysis of the deposited data

How the results depend on the processing

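Of 22 alternatives, the count of genes past the threshold stayed at 0 in all but the fit of pairs 1 and 3 with the replicate block, where it was 11, with fewer libraries and 1 residual degree of freedom. It was 0 with the replicate block on all 6 libraries, alone, with the GC correction or in edgeR, and 0 to 0 on leaving out each library. No cofactor passed in any alternative (lowest adjusted p = 0.799). Of 198 log2 fold changes of the 9 genes under alternatives, 29 had the other sign, none of them past the threshold. These were 7 of 22 for EP300 (-0.09 to 0.18), 7 for HDAC1 (-0.08 to 0.14), 4 for HDAC2 (-0.25 to 0.05), 3 for PRMT1 (-0.15 to 0.44), 3 for TCF12 (-0.33 to 0.07), 2 for NCOR1 (-0.27 to 0.04), 2 for SIN3A (-0.04 to 0.08) and 1 for TBL1XR1 (-0.53 to 0.10). Equal totals moved the median of all genes to -0.08 on the log2 scale, against 0.02 as deposited. A pair of fits in edgeR, with the replicate block and without control replicate 2, were added after seeing the data, as were the list counts without IL-10 replicate 2. Counting intervals of the pair ratios were widest for NCOR1, the cofactor with fewest reads, and ran from -0.10 to 0.14 in pair 1. Its limma interval in pairs 1 and 3 was -0.08 to 0.16. The width of that limma interval comes from the variance trend, so the 2 cannot be compared to judge depth.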
